A study of Mus musculus with 2 samples.

Results

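The inhibitory neurons described here are the nuclei that the authors annotated Inhibitory Neuron in the hippocampus of old mice, and their table held 5656 genes of 41442 gene rows over 9 cell type tables. Every gene row of that annotation was taken. RNA of single nuclei was captured in droplets and read from the 3′ end. Male mice, C57BL/6J in the series description, received an intraperitoneal injection once daily for 10 days from 10 weeks of age and were killed at 19 months. The exposed mice, called GWI after Gulf War Illness, were given 0.7 mg/kg pyridostigmine bromide, a carbamate that inhibits cholinesterases, and 200 mg/kg permethrin, a pyrethroid insecticide whose target is the sodium channel of nerve cells. The control mice were given vehicle. The strain is written C57/BL7 on the exposed sample and C57/BL6 on the control. Nuclei were isolated from the joined hippocampi of 3 animals, 1 library for each group. There is thus no spread between mice, no test and no standard error, and every difference below is between these 2 libraries. How many inhibitory nuclei each library held is unknown here, as are the reads per nucleus beyond a stated minimum of 25000, so no interval is given.

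Inhibitory neurons of the hippocampus release GABA, which they make from glutamate with the decarboxylases encoded by Gad1 and Gad2 and load into vesicles with the transporter encoded by Slc32a1. Most arise in the medial or the caudal ganglionic eminence of the embryo, and the transcription factors of each origin stay on in the adult cell. Their adult classes are told apart by what they carry beside GABA, such as the peptides somatostatin, neuropeptide Y, cholecystokinin and vasoactive intestinal peptide or the calcium-binding protein parvalbumin. These classes contact different parts of the pyramidal cell or, as many Vip cells do, other interneurons.

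For each gene the authors' deposited table gives a log2 fold change, GWI over control, and the share of each library's nuclei in which the gene was detected, and every such value below is theirs. A gene was listed where 1 library reached 10% of nuclei and the log2 fold change was at least 0.05 in size. A gene that is not listed may therefore be rare or may differ little, and these cannot be told apart. A gene near the 10% minimum can be listed only through the library in which it is higher. This holds for every gene below with a share under 10% in either library, and is stated by name only for some. The median log2 fold change over the 5656 genes was 0.05, the standard deviation over genes was 0.23, and 2860 genes (50.6%) were higher and 2796 (49.4%) lower in the GWI library. A log2 fold change of 0.5 in size, which is 1.41-fold, was used as the size rule. It was reached upward by 112 genes (1.98%) and downward by 33 (0.583%). Of these 145 genes, 117 were detected in under 25% of nuclei in both libraries. Washc3 at 0.50 and Scarb1 at -0.50 lay just inside the rule, and Ndufa4 at 0.50 and Ap3d1 at -0.50 just outside.

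The annotation was checked against the markers. Gad2 was detected in 61.5% of GWI and 59.8% of control nuclei, Slc32a1 in 33.2% and 26.9%, and Dlx6os1, a noncoding RNA of the Dlx locus that marks forebrain GABAergic neurons, in 82.2% and 80.2%. In the excitatory neuron table the same 3 genes were detected in 29.5% and 38.9%, 10.4% and 12.5%, and 32.6% and 38.0% of nuclei. Among 6 markers set for these neurons, Gad2, Slc32a1, Sst, Npy and Vip were listed in the inhibitory table and Gad1 was not. Sst and Vip were listed in no other table of the series. Markers of other cell types were also listed. Of 20 excitatory neuron markers 10 were listed, though Prox1, Calb1 and Cck of these are shared with inhibitory neurons. Among the 10 were Camk2a, a kinase gene of excitatory synapses, in 80.3% and 82.6% of nuclei, and Slc17a7, the main glutamate transporter gene of cortical vesicles. Slc17a7 was detected in 28.1% and 30.8%, against 67.6% and 60.5% in the excitatory table. Of the oligodendrocyte markers 5 of 13 were listed, and of the astrocyte markers 6 of 14, with Slc1a2 in 60.9% and 63.4%. Of the microglial markers 1 of 12 was listed, and 0 of 9 endothelial and 0 of 9 mural markers. Their part in the differences below was not tested.

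The peptide genes held the largest upward difference of the table. All 6 listed peptide genes, of 17 in the list, had positive log2 fold changes, with a median of 0.45, and 3 of the 6 passed the size rule, where the table as a whole had 1.98% past it upward. Vip, which encodes vasoactive intestinal peptide, was detected in 10.3% of GWI and 5.7% of control nuclei and was 3.23-fold higher in the GWI library, the highest value among all 5656 genes. It was listed only through the GWI library, since its control share lay under the 10% minimum. Npy, which encodes neuropeptide Y, was detected in 24.5% and 16.1% and was 1.96-fold higher, with a log2 fold change of 0.97. Penk, the precursor gene of the enkephalin opioid peptides, was detected in 20.5% and 18.2% and had a log2 fold change of 0.59. These 3 genes were thus found in more nuclei of the GWI library as well as at a higher mean. For the other peptides the mean and the share of nuclei did not always go together. Sst, the somatostatin gene, had a log2 fold change of 0.31 but was detected in 16.4% of GWI and 17.4% of control nuclei, and Tac1, the substance P precursor gene, had 0.10 with a log2 ratio of the detection shares of -0.11. Cck, the cholecystokinin gene, had 0.28 with 16.5% and 14.0%. In pooled nuclei, more nuclei of a peptide class and more peptide RNA per nucleus cannot be told apart. Npy was also listed in the mixed table named Other, at 0.76 with 16.7% and 8.6% of nuclei, and Penk was at -0.07 there. Against genes of like length 5 of the 6 stayed above 0.

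Several of these genes are textbook targets of the cAMP response element (CRE), the sequence bound by the activity-regulated factor CREB. Promoters are shown because the peptide genes Vip and Npy and the activity-induced gene Nr4a3 lay at opposite ends of the table. Sst, also shown, ranked 543 from the top of 5656 genes, and Cck and Tac1 ranked 687 and 2206. The stretches run 5′ to 3′ on the gene's strand and come from RefSeq, build GRCm38.p6. Capitals mark the full element TGACGTCA or its core TGACG on either strand, where it reads CGTCA, and every full element contains the core.
Vip, chr10:5639118-5639217, plus strand: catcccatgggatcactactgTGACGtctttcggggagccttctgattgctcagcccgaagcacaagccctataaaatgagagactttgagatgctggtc
Sst, chr16:23890875-23890904, minus strand: cgcctccttggcTGACGTCAgagagagagt
Npy, chr6:49822610-49822709, plus strand: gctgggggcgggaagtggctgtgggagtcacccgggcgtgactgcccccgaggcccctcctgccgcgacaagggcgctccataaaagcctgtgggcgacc
Nr4a3, chr4:48045080-48045109, plus strand: agcgtcccatgtCGTCAcatTGACGtctcg

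Positions are counted from the transcript start of RefSeq's promoter table, which is not always the outer boundary of the annotated gene. The Npy start is that boundary, at 49822710, whereas the starts of Vip (5639218), Sst (23890844) and Nr4a3 (48045305) lie 25, 498 and 227 bases inside it. The Vip and Npy stretches end at the base before their start. In Vip the core begins 79 bases before the start used and in Sst the full element 48 bases before it, within the annotated gene. Nr4a3 has 4 cores, 231, 213, 205 and 147 bases before the start used, of which the middle pair is shown and the last 3 lie within the annotated gene. Over windows of 300 bases around such starts, the core was found in 4 of the 5 listed peptide genes with a promoter entry, Vip, Sst, Cck and Tac1, and in 5 of 6 listed immediate early genes, against 23.0% of 27025 genes and 38.5% of the 4417 genes of the inhibitory table with an entry. The full element was found in 1 of the same 5 peptide genes, Sst, and in 0 of the 6 immediate early genes, against 2.03% of all genes and 3.96% of the table's genes. These matches describe letters in a window and do not show binding.

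**Figure D1:**
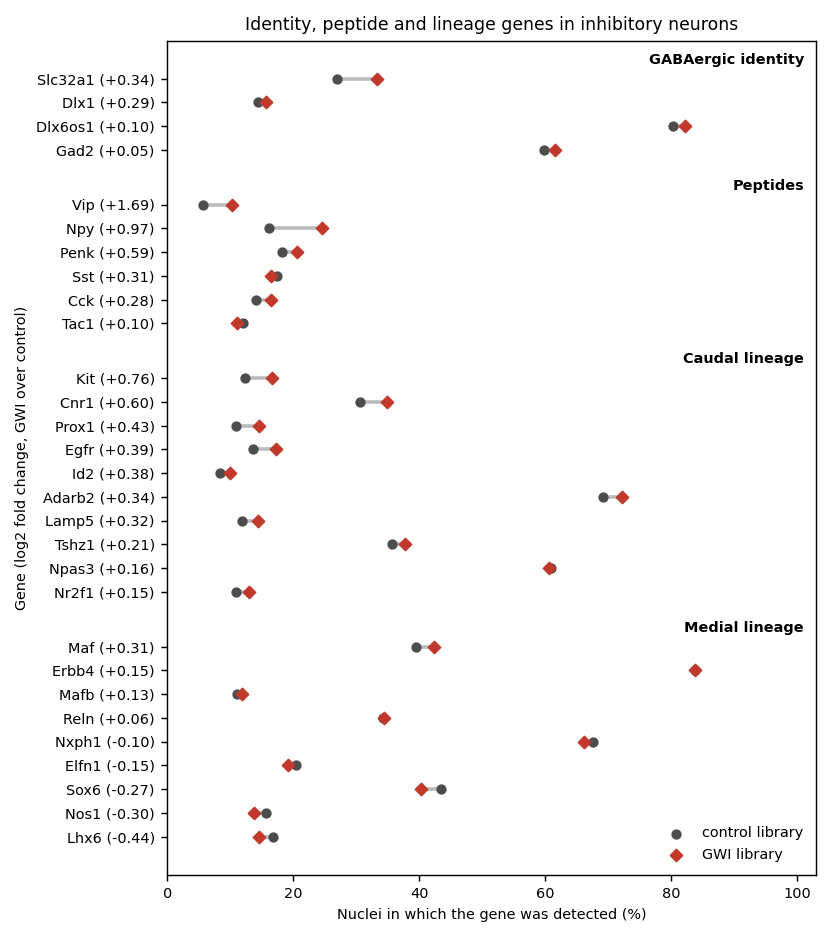
Percentage of inhibitory nuclei in which each gene was detected in the control library (circles) and the GWI library (diamonds), 1 library of 3 pooled mice each, with the log2 fold change in brackets. The widest gaps are those of Npy (16.1% to 24.5%) and Slc32a1 (26.9% to 33.2%), while Sst and Lhx6 were detected in fewer GWI nuclei.

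The core GABA machinery differed little. All 6 listed genes of the GABAergic identity list had positive values, with a median of 0.15 against 0.05 over the whole table, and 0 of the 6 passed the size rule. Slc32a1, the vesicular GABA transporter gene, was highest at 0.34, followed by Dlx1 (0.29), a homeobox gene of the interneuron lineage. Dlx6os1 and Gad2 were at 0.10 and 0.05, and centring on the table's median took Gad2 to just below 0. In the wider list of GABA synthesis and transport 9 of 11 listed genes were higher, with Slc38a2, a glutamine carrier gene, at 0.34. The exceptions were Abat, the gene of the enzyme that breaks down GABA, at -0.30, and the chloride importer gene Slc12a2, at -0.20, while the chloride exporter gene Slc12a5 was at 0.09. The list's median was 0.15.

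In the excitatory neuron table, which comes from the same 2 libraries, all 5 listed identity genes were lower and 1 passed the size rule, where 47.7% of its 6013 genes were lower and 0.765% passed downward. Gad2 was at -0.53 there against 0.05 in inhibitory neurons, Dlx6os1 at -0.43 against 0.10 and Slc32a1 at -0.31 against 0.34. Gad2 was also at -0.88 in oligodendrocyte precursor cells, where it was detected in 10.2% and 14.3% of nuclei, and at -0.69 in astrocytes, in 8.5% and 11.7%. The other types did not all go one way, since Dlx6os1 was at 0.53 in oligodendrocyte precursor cells, in 10.2% and 8.0% of nuclei. There Dlx6os1 was listed only through the GWI library, and Gad2 in astrocytes was listed only through the control library. With the median change in the other tables subtracted, the median of the 4 identity genes that could be compared was 0.62. The difference between the tables was not tested.

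**Figure D2:**
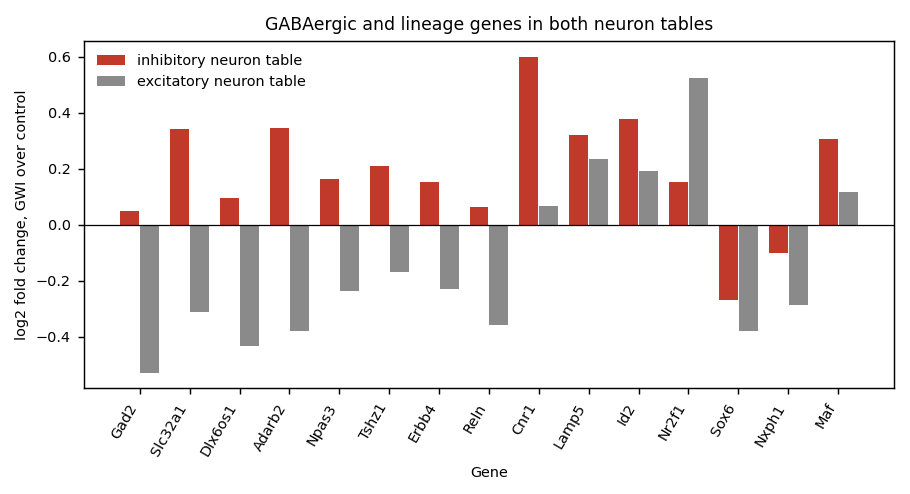
Log2 fold change, GWI over control library, of identity and lineage genes that were listed in both neuron tables, peptides left out (1 library of 3 pooled mice per group). Gad2, Slc32a1, Dlx6os1 and Adarb2 were positive in inhibitory neurons and negative in excitatory neurons, and Sox6 and Nxph1 were negative in both.

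All 12 listed caudal lineage genes, of 22, had positive values, with a median of 0.36, and 3 of them passed the size rule. Among all 5656 genes of the inhibitory neurons, 50.6% were higher and 1.98% passed the rule upward. Against genes of like length 11 of the 12 were above 0, and with the change in the other tables subtracted 10 of 11. The excitatory table had 5 of 8 higher and 1 past the rule, against 52.3% and 1.38% of all its genes. Without Vip and Cck, which are also in the peptide list, the other 10 ranged from 0.15 to 0.76. Of these 10 genes 2 passed the size rule. Kit, which encodes a receptor kinase of neurogliaform and related cells, was detected in 16.6% of GWI and 12.3% of control nuclei and was highest at 0.76. Cnr1, the cannabinoid receptor gene of cholecystokinin cells, was at 0.60 with 34.9% and 30.5%, and Prox1, a homeobox gene kept by caudal-derived cells, at 0.43 with 14.6% and 10.9%. Egfr (0.39), Id2 (0.38), Adarb2 (0.34) and Lamp5 (0.32) followed. Id2, with 10.0% and 8.4% of nuclei, was like Vip listed only through the GWI library. Adarb2 marks the caudal lineage broadly and was detected in 72.1% and 69.2% of nuclei. The share of nuclei was higher in the GWI library for 11 of the 12 genes, Npas3 being the exception with 60.5% and 60.8%.

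Of the medial lineage list 12 of 19 genes were listed, 7 higher and 5 lower. The median was 0.08 on the log2 fold change and -0.06 on the log2 ratio of the detection fractions. It was -0.01 after allowance for gene length, and with the change in the other tables subtracted it was 0.25 with 9 of 10 genes above 0, so the list's direction depended on the setting. Lhx6, the transcription factor gene that defines the lineage and was listed in no other table, was at -0.44 with 14.5% of GWI and 16.8% of control nuclei. Sox6, which acts after Lhx6, was at -0.27 with 40.2% and 43.5%, and Nos1, the gene of neuronal nitric oxide synthase, at -0.30 with 13.8% and 15.6%. Elfn1, a synaptic organiser gene of somatostatin cells, was at -0.15. The highest members were Npy (0.97), Sst (0.31) and Maf (0.31), and without Npy, Sst and Tac1, a choice made after their values were seen, the median was -0.10. Pvalb, the parvalbumin gene, was not listed.

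The lists of adult classes overlap with these. All 10 listed genes of the neurogliaform and Lamp5 class, of 14, were higher, with a median of 0.29, from Reln at 0.06 to Npy at 0.97. Of the Vip and cholecystokinin class 4 of 7 were higher, with a median of 0.28, but among the 3 of them detected in at least 25% of nuclei the median was -0.14. For parvalbumin cells 3 of 6 were higher, with a median of 0.02 that lay below 0 in 5 of 6 other settings, and Syt2, a synaptotagmin gene of their terminals, and Ank1 were at -0.35 and -0.30. For somatostatin cells 3 of 7 were higher, with a median of -0.08 that was positive in 3 other settings, and Rab3b, a vesicle GTPase gene, was at -0.27.

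Genes of striatal and septal GABAergic neurons were listed in this hippocampal table and were mostly lower. Of 10 such genes 5 were listed and 4 were lower, with a median of -0.35. Rgs9, a regulator of G protein signalling typical of striatal neurons, was detected in 20.7% of GWI and 28.8% of control nuclei and was at -0.55. Foxp2 was at -0.35 with 26.1% and 32.6%, and Drd1, the D1 dopamine receptor gene, at -0.37 with 8.5% and 10.2%. Meis2, a homeobox gene with broader expression, was at 0.13 but was detected in 64.1% and 69.4% of nuclei. All 5 were thus found in fewer GWI nuclei, though Drd1 was listed only through the control library. Adcy5, Rarb and Syt6, striatum-rich genes outside that list and picked after their values were seen, were at -0.54, -0.53 and -0.50. The excitatory table had like values, with Rgs9 at -0.48 (39.7% and 49.2%), Adcy5 at -0.42 and Drd2, the D2 dopamine receptor gene, at -0.52 (13.5% and 17.9%), and once the change in the other tables was subtracted the list's median in inhibitory neurons was -0.08. The part of tissue beside the hippocampus in these values was not tested.

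Of the direct targets of the exposure, the cholinergic genes had no common direction. Only 6 of 21 were listed, 3 higher and 3 lower, with a median of 0.00. Ache, which encodes acetylcholinesterase, the enzyme that pyridostigmine inhibits, was the only member past the size rule, at 0.50 with 10.1% of GWI and 8.2% of control nuclei. Like Vip, Ache was listed here only through the GWI library, since its control share lay under the 10% minimum. It was listed in 1 other table, Other, at -0.20. The muscarinic receptor genes Chrm2, common in interneurons, and Chrm3 were at -0.12 and -0.06, and the nicotinic receptor gene Chrna7 at 0.07. Ric3, a chaperone gene for nicotinic receptors, was at 0.15 and Lynx1, which encodes a brake on them, at -0.09.

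Voltage-gated sodium channels, which permethrin holds open, had small values. Of 15 sodium channel genes and partners 9 were listed and 7 were higher, with a median of 0.10, and 0 of the 9 passed the size rule. Scn1a, the main channel gene of fast-spiking interneurons, was at 0.07 with 72.8% of GWI and 72.3% of control nuclei. Scn2a was at 0.10, and Scn3a, a channel gene more abundant early in life, was highest at 0.27 with 55.7% and 51.9%. Scn9a and Scn2b were at 0.20 and 0.09, the leak channel gene Nalcn at 0.14, and the channel-binding genes Fgf13 and Fgf12 at 0.16 and -0.07. Scn8a, the channel gene of the axon initial segment, was at -0.11.

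Calcium and potassium channel genes were mostly lower. Of 13 listed calcium channel genes 12 were lower, where 49.4% of all 5656 genes were lower. Their median of -0.17 became 0.01 once the change in the other tables was subtracted. Against genes of like length 8 of the 13 were lower, with a median of -0.06. The excitatory table had 12 of 13 lower, against 47.7% of all its genes. Cacna1i, a T-type channel gene, was lowest at -0.37 with 22.4% and 28.3% of nuclei, followed by the auxiliary subunit gene Cacna2d2 (-0.31). Cacna2d1, a related subunit gene, was the exception at 0.22. Of 29 listed potassium channel genes 20 were lower, with a median of -0.14. That median was 0.07 with the other tables subtracted and -0.09 against genes of like length. Both lists hold long genes, with median lengths of 248 kb and 186 kb. Of all genes of the table from 123 kb up, 27.2% were higher. Kcnip3, which encodes a calcium-binding partner of A-type channels, passed the size rule at -0.57 with 21.0% and 26.0%. Kcnab2, an auxiliary subunit gene, was at -0.32.

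Of 8 listed GABA-A receptor subunit genes 7 were higher, all by less than the size rule, with a median of 0.11 that stayed positive in all 6 other settings. Gabra5, the subunit gene of extrasynaptic receptors in the hippocampus, was at 0.21 and Gabra4 at -0.07. Of the scaffold of inhibitory synapses 6 of 8 listed genes were lower, with a median of -0.16, which was 0.01 with the other tables subtracted. Insyn2b was lowest at -0.41, followed by Shisa7 (-0.33), a GABA-A receptor partner gene, and Lhfpl4 (-0.23), which encodes a protein that clusters these receptors. Of 3 listed GABA-B receptor genes 2 were lower, with Gabbr2 at -0.17 and Kctd16 at 0.18, and the list's median of -0.11 was 0.15 after the same subtraction. Of 18 listed ionotropic glutamate receptor genes 11 were lower, with a median of -0.10 that became 0.11 after subtraction of the other tables and 0.01 after allowance for gene length. The AMPA receptor partner genes Cacng8 (-0.39), Cacng2 (-0.29) and Cacng3 (-0.28) were the lowest, and Grik2, a kainate receptor gene, the highest at 0.22. Among receptors for modulators Adrb1, the beta-1 adrenergic receptor gene, was at -0.65 with 8.6% and 11.2%, Htr4 at -0.46 and Adra1b at 0.43, and the list's median of -0.15 was 0.20 among genes detected in at least 25% of nuclei.

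Genes of synaptic release and of the postsynaptic density were lower in most cases. Of 29 listed release genes 23 were lower, where 49.4% of all genes of the table were lower. Their median was -0.17, and it became 0.04 once the change in the other tables was subtracted. Sv2b, a vesicle glycoprotein gene, was lowest at -0.45 with 40.0% of GWI and 45.6% of control nuclei. Dnm1, which encodes the dynamin of vesicle retrieval, was at -0.39 and Syt7, a calcium sensor gene, at -0.38. Of 17 listed postsynaptic scaffold genes 16 were lower, with a median of -0.26, or 0.00 after the subtraction. Homer1 was lowest at -0.49 with 59.5% and 65.4%, Shank1 was at -0.41, and Dlg1 was the exception at 0.07. The adhesion genes of the neurexin, neuroligin and contactin families were near the table's centre, with 14 of 25 higher and a median of 0.06 that was just below 0 among genes detected in at least 25% of nuclei and on the detection ratio. Slitrk1 (0.32) and Lrrtm2 (0.29), both synapse organiser genes, were highest and Adgrl2 (-0.26) lowest. Of the axon guidance genes 20 of 31 were lower, with a median of -0.08 that was 0.02 and 0.03 after subtraction of the other tables and of gene length. Of the 31 genes 2 passed the size rule upward, Sema3c (0.60) and Ntn4 (0.52), where 1.98% of all genes of the table did.

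**Figure D3:**
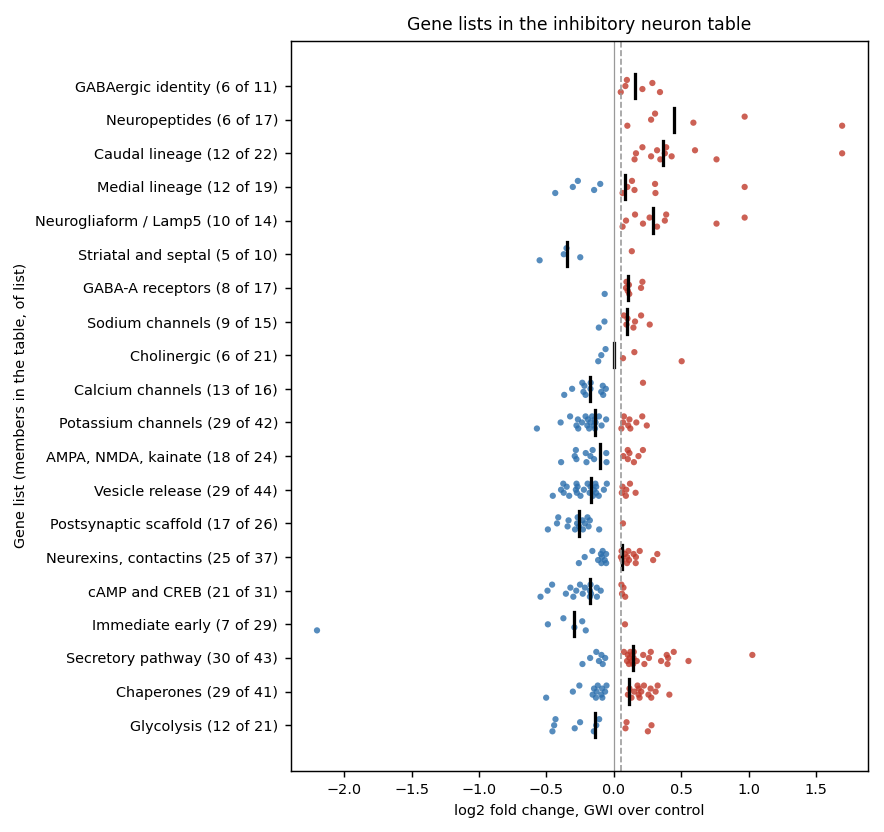
Log2 fold change, GWI over control library, of each listed gene of 20 lists (points) with the list's median (black bar) in the inhibitory neuron table, 1 library of 3 pooled mice per group. The dashed line is the median of all 5656 genes (0.05). All listed peptide and caudal lineage genes lie above 0, and 16 of 17 postsynaptic scaffold genes below it, a median that becomes 0.00 once the change in the other tables is subtracted. Of the peptide and caudal lineage genes, Vip and Id2 were listed only through the GWI library.

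Most listed genes that neuronal activity induces were lower, and 1 of them by far the most. Nr4a3, which encodes an orphan nuclear receptor induced within the first wave after stimulation, was detected in 4.8% of GWI and 11.6% of control nuclei and was 4.60-fold lower, with a log2 fold change of -2.20, the lowest among all 5656 genes. Nr4a3 was listed only through the control library, since its GWI share lay under the 10% minimum. It was at -0.20 in the excitatory table, with 10.0% and 11.0%, and at 0.15 in Other, with 17.7% and 16.7%. Of 29 immediate early genes and relatives 7 were listed and 6 were lower, with a median of -0.29 that stayed negative in all 6 other settings. Beside Nr4a3 these were Homer1 (-0.49), Nr4a1 (-0.37), Per1 (-0.29), Egr1 (-0.23) and Rheb (-0.21). Jund was at 0.08, and Fos, Arc and Npas4 were not listed. The excitatory table had 5 of 7 listed members lower, with a median of -0.15. Of 21 listed genes of cAMP and CREB signalling 17 were lower, and the median of -0.18 was 0.01 with the other tables subtracted. Adcy5, an adenylyl cyclase gene, was lowest at -0.54 with 33.6% and 42.9%, followed by Pde4a (-0.49), a cAMP phosphodiesterase gene, and Sik2 (-0.46) and Sik3 (-0.36), genes of kinases that restrain CREB coactivators. Of the clock genes 9 of 11 were lower, with a median of -0.15, among them Per2 (-0.29) and Nr1d2 (-0.28). Of 7 listed genes of the glucocorticoid list 3 were higher, with a median of -0.10 that was 0.27 with the other tables subtracted and a mean of 0.06. Errfi1, a feedback inhibitor gene of the EGF receptor, was at 0.71 and Fkbp5, a chaperone gene induced by glucocorticoids, at 0.28.

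Genes of the early secretory pathway, through which peptides pass, were mostly higher. Of 30 listed genes 23 were higher, with a median of 0.14 that was 0.04 after subtraction of the other tables and 0.07 after allowance for gene length. The excitatory table had 23 of 26 listed genes higher, with a median of 0.15, so the direction was not particular to inhibitory neurons. Tmed4, a cargo receptor gene of vesicles between endoplasmic reticulum and Golgi, was detected in 13.9% of GWI and 8.4% of control nuclei and was 2.04-fold higher, second to Vip in the inhibitory table. Like Vip, it was listed only through the GWI library. Its relatives Tmed2 (0.44), Tmed9 (0.40) and Tmed7 (0.39), and Ssr4 (0.55), of the translocon, were also among the highest, while Sec61a1 was at -0.18. In peptide processing 9 of 13 listed genes were higher, and the median of 0.12 lay at -0.02 against genes of like length. Resp18, a gene of the dense core granule pathway, was at 0.54 with 17.0% and 11.9%, and the granin gene Scg2 at 0.40 with 42.2% and 35.9%, whereas Pcsk1, a prohormone convertase gene, was at -0.23. Of 29 listed chaperone genes 16 were higher, with a median of 0.12, or -0.03 after allowance for gene length. Grouped after their values were seen, all 9 chaperones of the endoplasmic reticulum were higher, from 0.15 to 0.41 with Pdia3 highest, and 13 of the other 20 were lower, with Hsph1, of the cytosol, at -0.50 with 24.9% and 32.2%.

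The glycolysis and mitochondrially encoded lists had medians of opposite sign as deposited, and a change in energy metabolism was not tested. Of 12 listed glycolysis genes 8 were lower, and the median of -0.14 was 0.00 with the other tables subtracted. Pfkfb3 (-0.46), a regulator of glycolytic rate, Pkm (-0.44) and Gpi1 (-0.43), both enzymes of the pathway, were lowest, and Pfkm was at 0.28. Of 10 listed mitochondrially encoded genes 7 were higher, with a median of 0.13, and mt-Nd3 was highest at 0.47 and mt-Nd5 lowest at -0.21. The excitatory table had 2 of 7 of these higher. Cytosolic ribosomal protein genes were higher in 20 of 31 cases, with a median of 0.12 and Rpl9 highest at 0.65. Their median length was 3.81 kb, and the shortest group of genes, under 19.3 kb, had a median of 0.16 with 74.1% higher. These genes thus did not stand above genes of like length.

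The remaining lists had small medians. Those of calcium-binding proteins, metabotropic glutamate receptors, modulator receptors and chloride regulators were -0.07, -0.11, -0.15 and -0.10, with Cabp1 at -0.47, Grm4 at -0.39 and Wnk2 at -0.29 as their lowest named members apart from those above. The perineuronal net list was at 0.11, with Cspg5 at 0.41 and Tnr at -0.28, and the neuregulin and ErbB list at 0.03, with Erbb4, the neuregulin receptor gene of interneurons, at 0.15. The excitatory, oligodendrocyte and astrocyte marker lists were at -0.20, -0.15 and 0.12. The higher members of the excitatory list were Prox1, Cck and Calb1, which are shared with inhibitory neurons. Every median in this paragraph had the other sign in at least 1 other setting. Mal and Clu were at 0.37 and 0.41, and Mobp and Camk2a at -0.43 and -0.23.

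Among single genes, the 15 highest ranked held Vip, Npy, Tmed4, Kit and Errfi1 with 10 others. Bmyc, a gene of the Myc family, was 1.99-fold higher and was detected in 10.4% of GWI and 6.3% of control nuclei. Nrg3os, transcribed opposite the neuregulin gene Nrg3, was 1.76-fold higher in 38.3% and 27.9%. The opposite-strand transcripts Grip1os2 (0.76) and Sorbs2os (0.71) were also in this group, and 10 of 14 listed transcripts of this kind were higher. The others were Aldh6a1 (0.77), a mitochondrial enzyme gene of valine breakdown, Fjx1 (0.75), Crispld1 (0.73), the cathepsin L gene Ctsl (0.72), Dnajb9 (0.70), an endoplasmic reticulum cochaperone gene, and Txndc15 (0.69). Like Vip and Tmed4, the genes Bmyc, Aldh6a1, Grip1os2, Fjx1, Crispld1, Errfi1 and Dnajb9 were listed only through the GWI library. In the excitatory table Nrg3os was at 0.68, Sorbs2os at 0.67, Bmyc at 0.52, Ctsl at 0.48, Tmed4 at 0.35 and Aldh6a1 at 0.08. Kit and Vip were not listed there. Of the 112 genes past the size rule upward, Ube3a, the imprinted ubiquitin ligase gene, was detected most widely, in 76.9% and 65.6% of nuclei, at 0.59, and it was at 0.48 in excitatory neurons.

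The 15 lowest ranked, Nr4a3 first, included several transcription factor genes. Zfp423 (-0.73), Zbtb7c (-0.70), Ppard (-0.68) and Etv5 (-0.66) encode DNA-binding proteins, Ssbp3 (-0.67) a cofactor of LIM factors such as Lhx6, and Kmt2d (-0.59) a histone methyltransferase. Ssbp3 was detected in 31.0% of GWI and 41.7% of control nuclei and Etv5 in 27.4% and 36.5%. The rest were Stac (-0.68), Abcd4 (-0.66), Acot7 (-0.66), Adrb1 (-0.65), the neuronal noncoding RNA Bc1 (-0.60), Prkab2 (-0.60), a subunit gene of the energy sensor AMPK, Baalc (-0.58) and Kcnip3 (-0.57). Acot7, a thioesterase gene, was detected in 27.6% and 38.0% and Bc1 in 37.4% and 47.8%. Like Nr4a3, the genes Zbtb7c, Stac, Abcd4 and Adrb1 were listed only through the control library. In excitatory neurons Bc1 was at -0.58, Etv5 at -0.55, Acot7 at -0.49, Ssbp3 at -0.41 and Zfp423 at -0.35, whereas Baalc was at -0.11 and Adrb1 at 0.06.

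**Figure D4:**
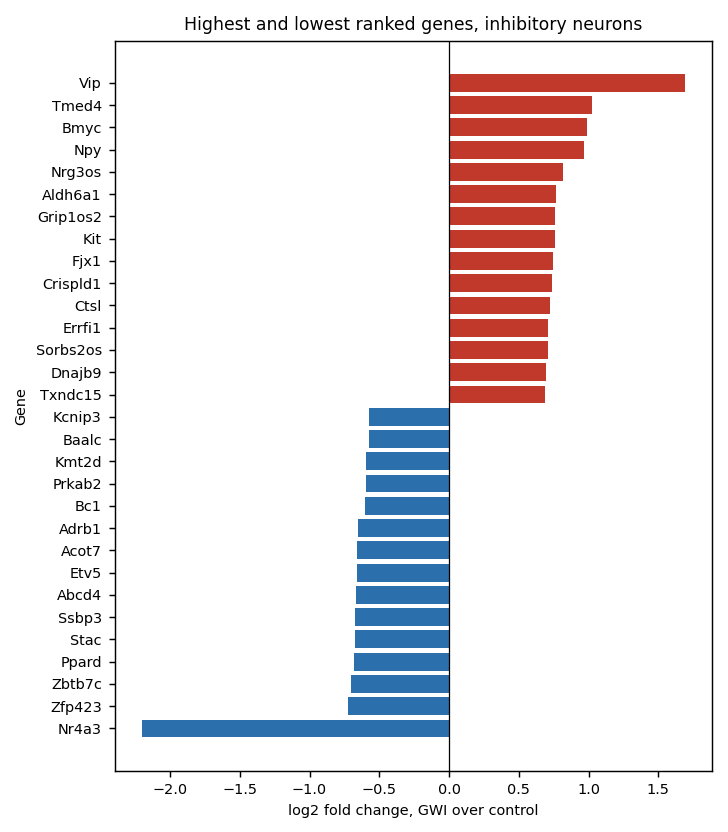
Log2 fold change, GWI over control library, of the 15 highest and 15 lowest ranked genes of the inhibitory neuron table, predicted genes, clone names and mitochondrial genes left out (1 library of 3 pooled mice per group). Vip (1.69) and Nr4a3 (-2.20) lie well beyond the rest. Vip, Tmed4, Bmyc, Aldh6a1, Grip1os2, Fjx1, Crispld1, Errfi1 and Dnajb9 were listed only through the GWI library. Nr4a3, Zbtb7c, Stac, Abcd4 and Adrb1 were listed only through the control library.

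Gene length and detection moved with the differences. With the genes in 5 groups of equal number by length, the median log2 fold change went from 0.16 in the shortest genes, under 19.3 kb, through 0.11, 0.06 and -0.10 to -0.11 in the longest, from 123 kb up. The share of higher genes went from 74.1% to 27.2%. The listed peptide genes had a median length of 6.33 kb and the secretory genes of 14.3 kb, against 248 kb for the calcium channels, while the caudal lineage genes had 39.2 kb and the GABA-A receptor genes 114 kb. Set against the median of their own length group, the peptide median was 0.29, the caudal lineage median 0.34 and the postsynaptic scaffold median -0.16. Genes detected in 10% to 15% of nuclei had a median of 0.11 and held 62 of the 112 genes past the size rule upward, and those detected in 25% to 50% had a median of -0.06 and 13. Vip lies on chromosome 10 from 5639193 to 5647617, Npy on chromosome 6 from 49822710 to 49829507 and Nr4a3 on chromosome 4 from 48045078 to 48086447 in GRCm38, and all are protein-coding genes.

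**Figure D5:**
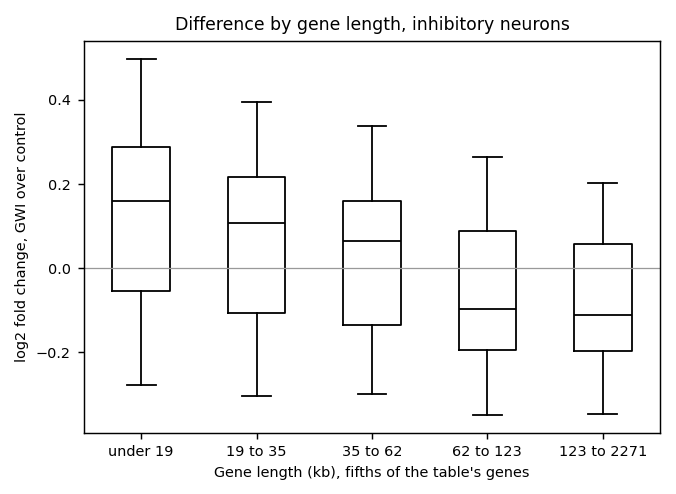
Log2 fold change, GWI over control library, in the inhibitory neuron table in 5 groups of gene length (1 library of 3 pooled mice per group). Lines in boxes are medians, boxes span the quartiles over genes and whiskers the central 90% of genes, and the median went from 0.16 in the shortest to -0.11 in the longest genes.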

How the data were processed

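Each group was 1 library from pooled hippocampi, with a minimum of 25000 reads for each nucleus stated in the labels. The submitters' processing notes name GRCm38 (mm10) as the build and Cell Ranger as the tool. How nuclei were grouped, how doublets and free RNA were treated and the test behind the p-values are not stated. The log2 fold changes, deposited per gene, set the first named library (GWI) against the second (control), an order read from the comparison label, which writes PBS for the libraries, with scaling and pseudocount not stated. The deposited fractions of nuclei with a gene detected are printed as percentages. The deposited p-values, which with 1 library per group can rest only on nuclei, had adjusted values equal to 25706 times the raw ones and were not used, since nuclei are not replicates.

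The members and 46 gene lists were chosen with earlier results of these data known. Lists with at least 3 listed members, 40 in number, were described by counts and median. Named genes were identity and peptide genes, the 15 highest and 15 lowest, up to 6 per list by size, and all listed cholinergic and sodium channel genes; others were chosen after their values were seen. Lengths, positions and promoters came from RefSeq (GRCm38.p6), and 98.0% of the 5656 symbols had a length. The list summary was tested on simulated data. Python 3.11.15, pandas 2.3.3, numpy 2.4.6 and matplotlib 3.10.9 were used. Some genes of the lists, counted in the lists' values, are not reported by name here.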

Additional observations from a re-analysis of the deposited data

Results flagged for a closer look

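In 3 genes the inhibitory table and another table of the same 2 libraries passed the size rule in opposite directions, and the difference was not tested. Kit was at 0.76 in inhibitory neurons and at -0.90 in oligodendrocyte precursor cells, where it was detected in 7.2% of GWI and 11.3% of control nuclei. In the precursor cells Kit was listed only through the control library. Etv5 was at -0.66 in inhibitory neurons and at 0.92 in microglia, with 20.2% and 10.8% of nuclei. Rreb1 was at -0.52 in inhibitory neurons, with 15.1% and 19.3%, and at 0.50 in oligodendrocyte precursor cells, with 17.2% and 12.6%. In oligodendrocyte precursor cells 433 of 4475 genes passed the size rule upward and 295 downward, and in microglia 75 and 58 of 2534. In inhibitory neurons 112 and 33 of 5656 did. The endothelial and pericyte tables, whose values spread most widely, were left out of this search, as were predicted genes and clone names.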

How the results depend on the processing

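With 1 library per group, no replicate could be left out. No paired analysis was possible because each group has 1 library. A median was taken to have moved where it changed by 0.1 or more or changed sign. The counts past the size rule, 112 higher and 33 lower, were 2 and 2 with a size of 1, 844 and 609 with 0.25, and 15 and 13 among the 2781 genes detected in at least 25% of nuclei. Centring on the table's median gave 57 lower. Subtraction of the change in the other tables gave 57 higher, the ratio of detection fractions 56 higher and 3 lower, and subtraction of the median of each gene-length group, chosen after seeing the data, 60 higher and 65 lower. The peptide median of 0.45 was 0.29 with other tables subtracted, 0.20 on the detection ratio, 0.29 with gene length subtracted and 0.66 as a mean, and no peptide gene was left at a 25% detection minimum. The GABAergic identity median of 0.15 was 0.62 and that of synaptic release, -0.17, was 0.043 with other tables subtracted. The GABA-A receptor median of 0.11 was 0.21 with gene length subtracted. The immediate early median of -0.29 was -0.14 on the detection ratio, -0.40 with gene length subtracted and -0.53 as a mean. Only 1 of 10 mitochondrially encoded genes had a length, so for that list the length setting is void. The cause of these shifts was not tested. Over the 40 lists, the median kept its sign in 37 after centring, 34 of 39 at the detection minimum, 23 after subtraction of the other tables, 34 on the detection ratio, 30 after allowance for gene length and 37 as a mean. Of 220 named genes 13 had another sign or a 0 on the detection ratio, none of them past the size rule.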
